A study of Mus musculus with 4 samples.

Results

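The genes of shelterin and of telomere maintenance were followed across GFP-negative and GFP-positive mouse embryonic stem cells (ESCs). They are 10 genes chosen by name: Terf1, Terf2, Terf2ip, Tinf2, Acd, Pot1a and Pot1b of shelterin, the helicase gene Rtel1, and Tert and Tep1 of telomerase. Of these, 9 had a row, out of 24190 gene symbols in each table, and they held 43 of the 58853 listed transcripts. Pot1b had no row and was not analysed here.

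The cells, ES-E14TG2a, are an established ESC line from a male mouse and were kept in serum-free medium with a MEK inhibitor and a GSK3β inhibitor. Both reporter lines were clonal and had a stably integrated Zscan4c promoter, in front of GFP alone in what is called the GFP line here and of a GFP-Zscan4c fusion in what is called the fusion line. Sorting split each line into GFP-negative cells, labelled pluripotent, and GFP-positive cells, labelled 2C-like for their likeness to the 2-cell embryo. Each of the 4 populations is 1 poly-A library of 1 clone, so there is no replicate error within a population, and clone and construct cannot be told apart between the lines. Values are TPM, a transcript's length-corrected share of its library, summed over the listed transcripts of a gene.

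Shelterin is the protein complex that coats the TTAGGG repeats of chromosome ends and keeps them from being treated as DNA breaks. TRF1 and TRF2, the products of Terf1 and Terf2, bind the double-stranded repeat. TIN2 (Tinf2) joins them to TPP1 (Acd) and POT1, of which the mouse has a pair of genes, and POT1 covers the single-stranded overhang. RAP1 (Terf2ip) binds TRF2. TPP1 also recruits telomerase, whose reverse transcriptase is encoded by Tert, and ESCs are a cell type in which telomerase is active. Zscan4 has been linked with telomere lengthening in mouse ESCs.

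The promoter sequences of 3 members are shown because Tert and Pot1a were listed at 0 in the same library and Tinf2, chosen after its values were seen, was the one member above 0 in all libraries that was higher in GFP-positive cells of both lines. They are the 250 bases before the RefSeq start (build GRCm38.p6), written 5′ to 3′ on the gene's strand: chr13:73626661-73626910 (plus strand) for Tert, chr6:25809219-25809468 (minus strand) for Pot1a and chr14:55681818-55682067 (minus strand) for Tinf2. Capitals mark the GC box GGGCGG, or its reverse complement.
Tert: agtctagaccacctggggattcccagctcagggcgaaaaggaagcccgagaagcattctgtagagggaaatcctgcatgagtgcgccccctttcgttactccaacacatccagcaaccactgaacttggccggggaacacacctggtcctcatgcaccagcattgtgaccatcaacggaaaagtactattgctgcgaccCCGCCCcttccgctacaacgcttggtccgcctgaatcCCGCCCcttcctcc
Pot1a: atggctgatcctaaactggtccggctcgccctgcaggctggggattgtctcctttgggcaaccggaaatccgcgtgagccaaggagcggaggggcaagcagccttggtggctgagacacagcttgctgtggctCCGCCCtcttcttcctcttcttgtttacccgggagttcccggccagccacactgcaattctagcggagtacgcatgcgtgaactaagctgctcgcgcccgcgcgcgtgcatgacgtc
Tinf2: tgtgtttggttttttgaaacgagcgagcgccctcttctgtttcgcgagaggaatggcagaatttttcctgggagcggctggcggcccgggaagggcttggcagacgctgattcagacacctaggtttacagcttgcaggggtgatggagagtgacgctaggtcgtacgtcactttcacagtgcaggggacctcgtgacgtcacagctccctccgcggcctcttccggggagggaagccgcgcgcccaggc
Promoter windows were found for 8 of the 10 members (250 bases before to 50 after the start), and Terf1 and Tep1 had none. On both strands, with matches to different motifs allowed to overlap, the GC box was present in the windows of Tert (2 matches) and of Pot1a, Pot1b, Rtel1, Terf2 and Terf2ip (1 match each), and in 35.7% of all 32851 windows. The windows of Tinf2 and Acd held none. The letters TGCACAC, the motif known for Zscan4, were in 4.40% of all windows, a CACACACACA run in 1.61% and the E-box CACGTG in 7.15%, and none of the 3 was in a member's window. The telomere repeat TTAGGG was in the Pot1b window and in 10.6% of all windows. A match describes the letters of the window and is not a site.

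The libraries were checked against the sort before the members were read. Summed TPM of 8 markers of 2C-like cells was 12.1 without and 920 with GFP in the GFP line, and 5.64 and 1481 in the fusion line. Zscan4c, Zscan4d and Zscan4f are among them. The sort used the Zscan4c promoter and the fusion construct carries Zscan4c, so these rows are not an independent check. Outside them, Tcstv1, Tcstv3, Zfp352, Tmem92 and Usp17la were each higher with GFP in both lines. Tcstv3 was at 0.884 and 44.0 TPM in the GFP line and at 0.953 and 141 TPM in the fusion line. Summed TPM of 7 pluripotency markers lay between 2765 and 3499 in all 4 libraries. Klf4 among them went opposite ways, at 187 and 69.5 TPM in the GFP line and at 40.1 and 118 TPM in the fusion line. The 3 primitive endoderm markers with a row summed to at most 3.08 TPM in each library, the 5 trophectoderm markers to 32.5 to 41.4 TPM, most of it Tfap2c, and the 3 early differentiation markers to 29.0 to 68.2 TPM. The 5 fibroblast markers summed to 319 and 208 TPM in the GFP line and to 11.4 and 192 TPM in the fusion line, of which Vim held 310, 190, 8.17 and 178.5 TPM in that order, while Col1a1 was at most at 0.114 TPM. The GFP line's GFP-negative library stood apart, with 48.4% of symbols listed at 0 against 11.6% to 19.5% in the others. Of 8371 genes at 5 TPM or more and under 2-fold apart in the other 3 libraries, 18.1% were listed at 0 there, so a 0 in that library is not read as absence.

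Within shelterin, Tinf2 was higher in GFP-positive cells of both lines. It was at 19.2 TPM without and 29.6 TPM with GFP in the GFP line, and the values were 16.2 and 32.5 TPM in the fusion line. Both GFP-positive libraries therefore lay above both GFP-negative ones, at 1.55 and 2.00 times the GFP-negative TPM. On the log2(TPM + 1) scale, which understates changes of low genes, the ratios were 0.60 and 0.96. Ratios at least this large were found in 24% of 8904 genes in the GFP line and in 7.03% of 10775 genes in the fusion line, among genes above 0 in both libraries. In both lines at once they were found in 273 of 9093 genes above 0 in all libraries (3%), a share set by the values of Tinf2 itself. In limma's fit over both lines, which takes their disagreement as its error, the Tinf2 estimate was 0.78 with a standard error of 0.31 (95% interval -0.13 to 1.69), and its adjusted p was 0.683, so the call was not reached. In such bulk libraries, fewer cells of a type and less RNA per cell cannot be told apart. The Tinf2 value rests on a single listed transcript, Tinf2-201, of 9 in GENCODE M21 (chr14:55674689-55681820, minus strand, for the gene, on GRCm38, as for the other members). Of its 2956 exon bases, 1137 (38.5%) overlap exons of Gmpr2 on the opposite strand, and whether the libraries keep strand is not given in the sources used here. Gmpr2 was listed at 0 and then at 7.72 TPM in the GFP line, and stood at 8.46 and 7.82 TPM in the fusion line. Of the fibroblast markers, Thy1 was at 11.9 and 7.27 TPM with GFP and listed at 0 without it in both lines, and the 0 in the GFP line is not read as absence. Vim and Twist1 were lower with GFP in the GFP line and higher in the fusion line. Twist1 was at 9.03 and 6.19 TPM and at 3.10 and 6.24 TPM. The sum of the 5 fibroblast markers with a row went the same ways as Vim, and Col1a1 and Col1a2 were near 0 throughout. The part of these markers in the Tinf2 values was not tested.

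Terf1 (chr1:15805646-15844052, plus strand), whose product binds the double-stranded repeat, was the most abundant member in 3 libraries. It was listed at 0 in GFP-negative cells of the GFP line and stood at 59.5 TPM in its GFP-positive cells, and at 55.7 and 64.0 TPM in the fusion line. The 3 libraries above 0 lay within 1.15 times of each other. All 3 listed Terf1 transcripts were at 0 together in the one library, and elsewhere the protein-coding transcript Terf1-203 held 92.9% to 96.4% of the gene's TPM.

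Terf2 (chr8:107069400-107096547, minus strand), encoding the other double-strand binder, was at 39.9 and 27.5 TPM in the GFP line and at 26.3 and 24.8 TPM in the fusion line. Only the GFP line's GFP-negative library stood off. Summed over its 4 protein-coding transcripts, Terf2 was at 18.0 and 18.2 TPM in the GFP line and at 24.1 and 22.8 TPM in the fusion line, but those sums were made of different transcripts. In the GFP line's GFP-negative library all of it was Terf2-203, at 18.0 TPM, which was at 1.39, 2.16 and 0.784 TPM in the others. The retained-intron transcript Terf2-206, of 1188 bases, was at 17.2 and 8.72 TPM in the GFP line against 0.951 and 0.948 TPM in the fusion line. It made up 43.3% and 31.7% of Terf2 in the GFP line and 3.61% and 3.82% in the fusion line, so the lines differed more than the sorted populations. Among the coding transcripts, Terf2-202 was listed at 0 in GFP-negative cells of the GFP line and held 50.2%, 37.4% and 50.4% of the gene in the other libraries in order.

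Terf2ip (chr8:112011398-112020528, plus strand) and Acd (chr8:105695860-105701102, minus strand) differed little between sorted populations as deposited. Terf2ip, encoding the TRF2 partner RAP1, was at 8.05 and 7.36 TPM in the GFP line and at 6.39 and 7.43 TPM in the fusion line. With quantile normalization, its log2 ratio in the GFP line went from -0.11 to -0.998. Acd, encoding the telomerase recruiter TPP1, was at 29.1 and 28.0 TPM and at 22.3 and 23.0 TPM. The sorted populations of both genes overlapped across the lines, and for Acd the lines differed more than the populations. How many of all genes differ more by line was not counted. Acd was also read from 1 listed transcript, of which 34.5% of exon bases overlap Carmil2, listed as Rltpr, on the opposite strand at 0 to 1.48 TPM.

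Pot1a (chr6:25743737-25809246, minus strand), encoding a single-strand binder of the overhang, followed the pattern of Terf1. It was listed at 0 in GFP-negative cells of the GFP line, at 14.0 TPM in its GFP-positive cells, and at 9.05 and 10.2 TPM in the fusion line. All 8 listed transcripts were at 0 in the one library. In the other 3, the coding transcript Pot1a-203 made up 71.4% to 76.7% of the gene, so the main form was shared. The coding transcript Pot1a-209 was at 20.1% in GFP-negative cells of the fusion line and at 3.85% and 4.03% in the GFP-positive libraries. These shares rest on low values, 1.82 TPM against 0.538 and 0.409 TPM, each from 1 library.

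**Figure D1:**
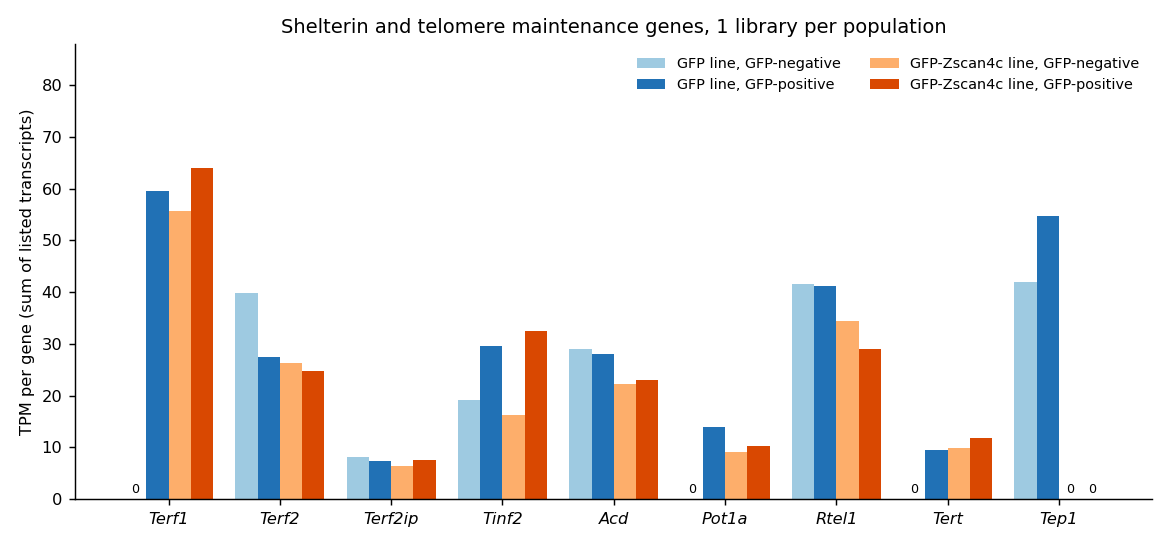
TPM per gene of the 9 members with a row, 1 bar per library (light bars GFP-negative, dark bars GFP-positive, blue the GFP line and orange the fusion line), with a 0 printed where the gene is listed at 0. Tinf2 has both dark bars above both light ones, Terf1, Pot1a and Tert lack a bar only in GFP-negative cells of the GFP line, and Tep1 lacks both bars of the fusion line.

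Rtel1 (chr2:181319739-181356616, plus strand), a helicase that takes telomere loops apart and helps replicate chromosome ends, did not go with GFP. It was at 41.6 and 41.3 TPM in the GFP line and at 34.5 and 29.0 TPM in the fusion line. Both libraries of the GFP line thus lay above both of the fusion line, as they did for Terf2 and Acd. The share of all genes whose lines separate in this way was not counted, so it is not read as a trait of these members. Its 20 listed transcripts split the gene widely. Protein-coding forms made up 45.3% and 51.9% in the GFP line and 41.3% and 45.6% in the fusion line. The coding transcript Rtel1-205 was at 11.3 and 5.53 TPM and then at 2.60 and 9.10 TPM, opposite in direction between the lines. The retained-intron transcript Rtel1-209 was lower in GFP-positive cells of both lines, at 7.46 and 3.30 TPM and at 7.51 and 2.19 TPM. Rtel1-209 was picked out after its values were seen, and how reads are divided among so many overlapping forms is an estimate that carries no error here.

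**Figure D2:**
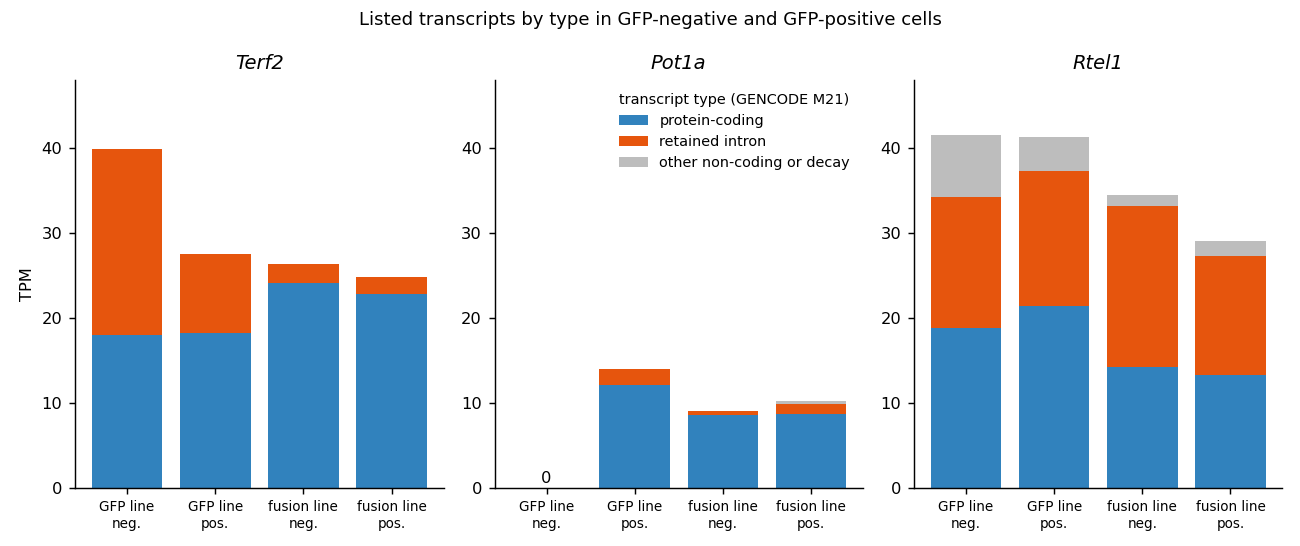
TPM of the listed transcripts of Terf2, Pot1a and Rtel1 in the 4 libraries, stacked by GENCODE M21 transcript type. Retained-intron forms of Terf2 are tall in the GFP line and short in the fusion line, while the protein-coding part stays between 18.0 and 24.1 TPM.

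Tert (chr13:73626911-73649843, plus strand), the catalytic subunit of telomerase, was detected at a low and even level wherever it was above 0. It was listed at 0 in GFP-negative cells of the GFP line and at 9.42 TPM in its GFP-positive cells, and was at 9.82 and 11.9 TPM in the fusion line. The GFP-negative library of the fusion line lay above the GFP-positive library of the GFP line, so the sorted populations overlapped. In the fusion line, which has no 0 for this gene, GFP-positive cells stood at 1.21 times the GFP-negative level.

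Tep1 (chr14:50824059-50870560, minus strand), a telomerase-associated protein that is also part of vault particles, separated the lines instead of the sorted populations. It was at 41.9 and 54.8 TPM in the GFP line and listed at 0 in both libraries of the fusion line. Of 4150 genes at 20 TPM or more in both libraries of the GFP line, Tep1 was the 1 gene listed at 0 in both libraries of the fusion line. The value comes from 1 of 8 annotated Tep1 transcripts (Tep1-201, 8171 bases, 55 exons), and the others were not analysed here, so a 0 for it is not read as absence of Tep1 RNA.

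Members 2-fold apart were counted in each line beside the share of all genes. In the GFP line, 3 of 9 members were 2-fold or more apart, all of them higher (Terf1, Pot1a and Tert, each listed at 0 in the GFP-negative library), against 40.7% of 11062 genes apart, 33.2% higher and 7.48% lower. Among the 5 members above 0 in all 4 libraries, 0 were 2-fold or more apart, against 26.2% of genes. In the fusion line, 0 of the 8 members at 5 TPM or more were 2-fold or more apart on this scale, against 11.4% of 10981 genes. That count turns on the added 1 TPM for Tinf2: on TPM itself, over members above 0 in both libraries, 1 of 8 was 2-fold apart there (Tinf2, 2.00 times), against 11.2% of 10775 genes. The GFP line had 0 of 6, against 28.4% of 8904 genes. Member medians of the log2 ratio were 0.38 and 0.15 in the GFP line and the fusion line, beside 0.24 and 0.14 over 11798 genes at 5 TPM or more in any library. Both GFP-positive libraries lay above both GFP-negative ones for 3 of 9 members (Terf1, Tinf2 and Pot1a), against 33.2% of genes, and 0 members had both below, against 9.54%. Among members above 0 in all libraries this held for 1 of 5, Tinf2, against 27% of genes.

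**Figure D3:**
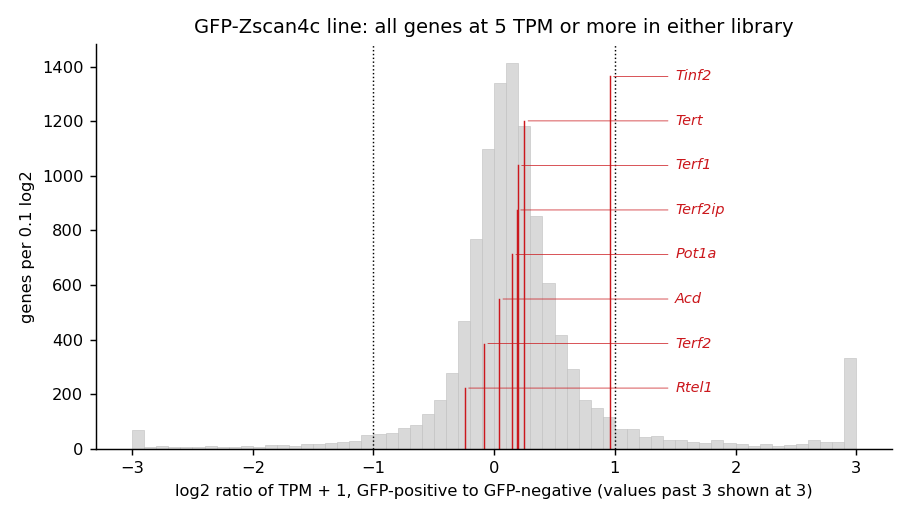
Histogram of the log2 ratio of TPM + 1, GFP-positive to GFP-negative, over the 10981 genes at 5 TPM or more in either library of the fusion line, with red lines at the 8 members. Tinf2, at 0.96, lies just inside the dotted 2-fold line, and the other 7 members lie between -0.24 and 0.25, in the body of the distribution.

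In limma's fit over both lines with Benjamini-Hochberg adjustment, 0 of 9 members and 0 of 14379 genes (0%) had an adjusted p under 0.05. At an unadjusted p under 0.05 there were 0 members and 972 genes (6.76%). The smallest unadjusted p among members was 0.0731, for Tinf2. For the 5 members above 0 in all libraries, the 95% intervals of the estimate in limma reached from -1.13 to 0.52 for Terf2, from -2.24 to 2.32 for Terf2ip, from -0.82 to 0.81 for Acd and from -0.80 to 0.55 for Rtel1, besides that of Tinf2 above. A change of 1.5 times in at least one direction thus lies inside each of these intervals.

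The lines were compared in their GFP-positive cells, whose libraries hold the fewest zeros. Between the fusion line and the GFP line, 1 of 9 members was 2-fold or more apart, Tep1 as described, against 9.76% of 11126 genes apart and 4.05% lower. On TPM with no pseudocount, 0 of the 8 members above 0 in both libraries were 2-fold apart, against 10.3% of 11027 genes. The remaining log2 ratios lay between -0.49 for Rtel1 and 0.31 for Tert, and the member median was -0.14, beside 0.04 over all genes.

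Other telomere genes were taken from a list of 44, of which 41 had a row. In the GFP line 15 of the 35 at 5 TPM or more were 2-fold or more higher and 0 lower, against the 33.2% of genes higher and 7.48% lower given above. In that line's GFP-negative library 12 of the 41 were listed at 0, as were 22.5% of the 11798 genes at 5 TPM or more in any library. In the fusion line 4 of 36 were higher and 0 lower, against 8.23% of genes higher and 3.14% lower. In limma 0 of 38 fitted genes passed after adjustment over all genes. An unadjusted p under 0.05 was reached by 3 of the 38 (Pinx1, Rif1 and H3f3b), beside 6.76% of 14379 genes. Rif1, a telomere and replication timing factor, was at 30.4 and 60.6 TPM and at 49.0 and 84.2 TPM, with an adjusted p of 0.46 in limma. H3f3b, a histone H3.3 gene, was at 107 and 162 TPM and at 143 and 191.5 TPM, with an adjusted p of 0.623.

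Of the 41 other telomere genes with a row, 2 were 2-fold or more higher in both lines, Pinx1 and Pif1. Across all 11798 genes at 5 TPM or more in any library, 5.18% were. Pinx1, encoding a telomerase inhibitor, had 11.1 and 10.8 TPM where GFP was positive. It was listed at 0 in the GFP-negative cells of each line, so the added 1 TPM sets its ratios. Pif1, a helicase, was at 1.01 and 14.7 TPM in the GFP line and at 9.55 and 22.8 TPM in the fusion line. The 1.01 TPM is from the library with most zeros. Adjusted p in limma was 0.46 for Pinx1 and 0.683 for Pif1. In the fusion line alone, the kinase gene Atm, which signals breaks and uncapped ends, was at 2.19 and 6.40 TPM, and Atrx, a chromatin remodeller that places H3.3 at telomeres, at 31.9 and 66.8 TPM. In the GFP line Atm was at 4.40 and 7.80 TPM and Atrx at 39.9 and 39.0 TPM.

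By role, genes 2-fold higher were counted over the genes that reached 5 TPM in that line, as for the shares of all genes. In the GFP line they were 2 of 7 for the telomerase particle and 6 of 11 for nucleases, helicases and resolvases (14 with a row). For tankyrases and telomere-binding or chromatin factors (13 with a row) they were 5 of 11, beside 33.2% of all genes. In the fusion line these groups had 1 of 7, 1 of 12 and 1 of 12 in that order, beside 8.23% of all genes. The kinases (3 with a row) had 1 of 2 in the GFP line and 1 of 1 in the fusion line. The CST complex had 1 of 3 and 0 of 3. Sun1, the 1 of 4 meiotic attachment genes with a row, was not 2-fold higher in either line. Of the proteins that hold telomerase RNA, Dkc1 (dyskerin) was at 214 and 213 TPM in the fusion line and Nhp2 at 145 and 151 TPM. Dkc1 was at 114 and 228 TPM and Nhp2 at 157 and 158 TPM in the GFP line. The CST complex ends telomerase action and fills in the complementary strand. Its genes were lower or level in GFP-positive cells of the fusion line, with 0 of 3 past 2-fold. Ctc1 was at 59.4 and 57.8 TPM, Obfc1 (Stn1) at 12.5 and 8.44 TPM and Ten1 at 16.3 and 12.8 TPM. Of 11798 genes at 5 TPM or more in any library, 3880 were lower in that contrast. In the GFP line Ctc1 was at 30.1 and 55.2 TPM, Obfc1 at 0 as listed and 14.1 TPM and Ten1 at 15.7 and 8.69 TPM, so the lines agreed in direction only for Ten1. Dkc1, Nhp2 and the CST genes were named after their values were seen.

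**Figure D4:**
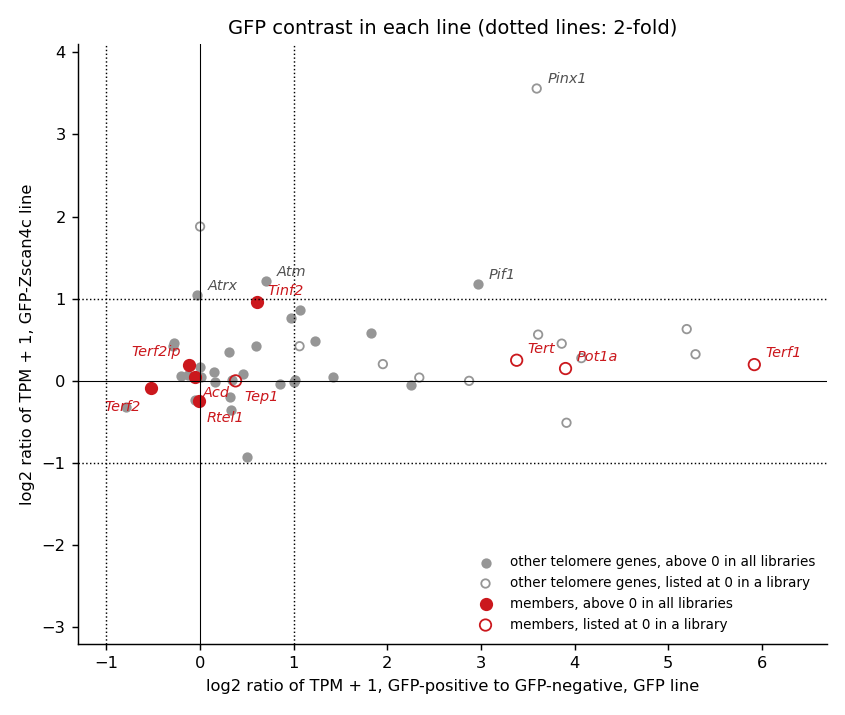
Log2 ratio of TPM + 1, GFP-positive to GFP-negative, in the GFP line (horizontal) and the fusion line (vertical) for the 9 members (red) and 41 other telomere genes (grey), with open circles for genes listed at 0 in a library, whose place is set by the added 1 TPM. Of the members above 0 in all libraries, Tinf2 lies apart at 0.60 and 0.96, and the open circles of Terf1, Pot1a and Tert lie far right but near 0 in the vertical.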

How the data were processed

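Per the labels' protocols, poly-A RNA was selected, fragmented and primed with random hexamers. Per the submitters' processing notes, CASAVA, HISAT2 2.1.0 and StringTie 1.3.5 were used with mouse build GRCm38 (mm10). Their options, the annotation and any use of strand were not given in the sources used here. The authors deposited TPM per transcript. The tables hold part of each library, 66.6% to 69.1% of a full TPM scale, and depth is unknown, so no counting interval is given. TPM were summed per symbol. Ratios use log2(TPM + 1). Genes 2-fold or more apart were counted at 5 TPM or more in either library, with no test, as there is 1 library per population. The test over both lines was limma 3.58.1 (R 4.3.3, trend and robust, two-sided, Benjamini-Hochberg) with GFP status and line as terms, for genes reaching 1 TPM in 2 or more libraries. It leaves 1 residual degree of freedom. On simulated data with seeded changes, its median estimates lay near the seeded sizes, but none passed after adjustment. That simulation shuffled the spreads among genes and had no line effect or zeros, so it does not measure power in these data. A count of 0 says little here. Separate cultures are not stated, so a p-value reflects only how these 4 libraries vary. Positions, types and overlaps come from GENCODE M21 (GRCm38), and promoters from RefSeq (GRCm38.p6). The members and lists were chosen with earlier results of these data known. All members are named, and of the other telomere genes up to 3 per group, largest among those 2-fold apart in both lines, else in the fusion line. Other telomere genes given by name were chosen after their values were seen. Alternatives were other pseudocounts, scalings, filters, no line term and leaving out each library, and, chosen after seeing the data, ratios of TPM with no pseudocount.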

Additional observations from a re-analysis of the deposited data

Results flagged for a closer look

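The log2 ratio of GFP-positive to GFP-negative cells had opposite signs in the lines for 2 of 9 members and 14 of 41 other telomere genes, as it did for 38.3% of 11798 genes at 5 TPM or more in any library. With 1 library per population, the differences were not tested. For Terf2ip it was -0.11 (GFP line) and 0.19 (fusion line), a difference of 0.304, and with quantile normalization both were negative, at -0.998 and -0.103. For Acd it was -0.05 and 0.04, a difference of 0.095, and both were negative with median-ratio scaling (-0.025 and -0.110) and with quantile normalization (-0.228 and -0.169).

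Among the other genes, the fusion line's ratio was higher than the GFP line's by 1.075 for Atrx, 0.744 for Tnks2, 0.724 for Nr2f2, 0.266 for Nop10, 0.202 for Smarcal1 and 0.166 for Wrap53. The same difference was -2.300 for Zbtb48, -1.438 for H3f3a, -1.006 for Dkc1, -0.891 for Ctc1, -0.690 for Sun1, -0.524 for Slx1b and -0.175 for Exo1. For Obfc1, listed at 0 in the GFP line's GFP-negative library, it was -4.423, a value that the added 1 TPM sets.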

How the results depend on the processing

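In the GFP line, 3 members were 2-fold or more apart under every pseudocount, scaling and filter tried except among members above 0 in all libraries, where 0 of 5 were and the median was -0.052, and on TPM with no pseudocount (chosen after seeing the data), where 0 of the 6 above 0 in both libraries were. In the fusion line the count was 0 under all planned settings and 1 of 8, Tinf2, with no pseudocount, and the member median was 0.006 with median-ratio scaling, -0.10 with quantile normalization and 0.043 among members above 0 in all libraries. Those scalings took the median of all genes in that line from 0.14 to -0.01 and -0.05, and quantile normalization took it from 0.24 to 0.02 in the GFP line. Tinf2 stayed higher in both lines, with adjusted p from 0.0913 to 0.979 in limma and log2 ratios of 0.31 to 0.63 in the GFP line and 0.81 to 0.998 in the fusion line. Between the lines in GFP-positive cells the count of members went from 1 to 0 without genes listed at 0, also with no pseudocount. Genes passing limma were 0, but 3 with a pseudocount of 5 TPM and 342 with quantile normalization, 0 of them members. Without 1 library (GFP status alone) they were 0 to 4204. The 4204 arose without the GFP-negative library of the fusion line, which leaves the library with most zeros as the only GFP-negative one, and there Terf1, Pot1a and Tert passed (adjusted p 0.0108 to 0.0126 in limma, against 0.648 to 0.979 under the other alternatives). The line term pairs the libraries of each line, and without it 0 genes passed. Estimates that changed sign were small or rested on a 0: Terf2ip fell from 0.04 to -0.019 with median-ratio scaling and to -0.58 with quantile normalization. Leaving out 1 library gave -0.11 to 0.18 for Terf2ip, -0.19 to 0.18 for Acd, -0.37 to 0.12 for Rtel1 and -2.71 to 3.09 for Tep1. The causes were not tested.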

Other observations

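Some other telomere genes, named after their values were seen, differed between the lines in GFP-positive cells. Of 37 at 5 TPM or more in either GFP-positive library, 2 were 2-fold or more higher in the fusion line and 2 lower. Over all genes, 635 were higher and 451 lower of 11126. The 2 higher were Rad50 and Hmbox1, and the 2 lower were Sun1 and Prkdc, which was at 6.32 TPM and then listed at 0. Rad50, of the complex that senses broken ends, was at 1.09 TPM (GFP line) and 16.5 TPM (fusion line) in GFP-positive cells, and at 0 as listed and 12.0 TPM in the GFP-negative cells. Hmbox1, a telomere repeat-binding protein gene, was at 4.07 and 16.5 TPM in the GFP-positive cells of these lines, and at 0 as listed and 16.0 TPM in the GFP-negative ones. Its log2 ratio was 1.79 between the lines in GFP-positive cells, against 2.34 between the sorted populations of the GFP line. For both genes the 0 is in the library whose zeros are not read as absence. Sun1, which ties meiotic telomeres to the nuclear envelope, was higher in the GFP line, at 101 and 127 TPM against 65.8 and 51.1 TPM.

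The reverse of the Tep1 pattern was also met by 1 gene. Of 4799 genes at 20 TPM or more in both libraries of the fusion line, Lars2, encoding the mitochondrial leucyl-tRNA synthetase, was the 1 listed at 0 in both libraries of the GFP line, and it stood at 850.5 and 459 TPM in the fusion line. As for Tep1, a listed 0 is not read as absence of Lars2 RNA, and the cause was not tested.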
